A study of Caenorhabditis elegans with 4 samples.

Results

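Tubulins are the building blocks of microtubules. An alpha and a beta subunit join into a dimer, dimers line up into hollow filaments, and these filaments form the mitotic and meiotic spindles, the tracks of axons and the axoneme of cilia. Caenorhabditis elegans, a nematode worm, carries a small family of alpha genes (tba) and beta genes (tbb), the isotypes. Some are used in most dividing cells, including the germline and the early embryo, and others mainly in a few kinds of neurons.

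The genes described here are 10 alpha and beta tubulin genes, taken by name: tba-1, tba-2, tba-4, tba-5, tba-6, tba-9, tbb-1, tbb-2, tbb-4 and tbb-6. The touch neuron genes mec-7 and mec-12 were left out of the set by the rule and serve below for comparison. All 10 had a probe annotated to that gene alone, 1 probe each, among 14943 genes on the array. By the RefSeq genes of assembly WBcel235, tba-1, tba-2, tba-5 and tba-6 lie on chromosome I, tba-4 on II, tbb-1 and tbb-2 on III, tbb-6 on V, and tba-9 and tbb-4 on X. No genome build is named for the array, so no coordinates are given.

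RNA of wild-type (wt) adult worms, from preparations (preps) numbered 1 to 4, was hybridised against a wild-type mixed reference RNA on 4 2-colour microarrays. The sources used here do not give worm age, culture conditions or the make-up of the reference. Each deposited value is a log2 ratio, and reading it as adult over reference is likely but not stated: the labels put the adult RNA in channel 2 of every array, and such tables usually give channel 2 over channel 1. The channels were never exchanged between adult and reference, so a probe's channel effect and a difference between the RNAs cannot be told apart. A ratio shows how a gene compares between adult and reference RNA, not how abundant its RNA is, and in whole worms fewer cells of a type and less RNA per cell cannot be told apart.

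The arrays held 21243 to 21501 values each, with medians from -0.0043 to 0.0496, and they correlated over the probes with Pearson's r from 0.66 to 0.755 (a description, since probes are not replicates). Preps 3 and 4 share a date in their titles, and the others have a date of their own. Markers of the adult germline were high in these preparations, with 18 of 19 tested germline genes, 10 of 13 sperm genes and 15 of 16 oocyte genes called positive and none called negative. Without prep 2 or without prep 4, 9 oocyte genes were called. A gene is called here when limma, fitted over all 14935 genes with at least 3 values, gave a Benjamini-Hochberg adjusted p under 0.05 against a log2 ratio of 0 (two-sided). Of all genes tested, 23.2% were called positive and 21.2% negative, so a call by itself is common in these data. The median over all genes was 0.06 on the log2 scale.

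The ratios of the tubulin isotypes lay on both sides of 0. Of the 10 genes, 3 were called positive, all of them alpha genes (tba-6, tba-4 and tba-2), and 2 were called negative, both beta genes (tbb-6 and tbb-4). The remaining 5 were not called. Both counts are near the shares of all genes called positive (23.2%) and negative (21.2%), so as counts they do not set the tubulins apart. The median of the 10 means was 0.07, close to that of all genes, while the means ran from -1.203 for tbb-4 to 0.89 for tba-6. Within this set the 6 alpha genes had a median of 0.53 and the 4 beta genes a median of -0.32. The alpha genes measured outside it and described below had means below 0: tba-8 (-1.79), mec-12 (-1.17) and tba-7 (-0.37). The beta gene mec-7, also outside it, had -0.46. The split between alpha and beta genes therefore depends on which genes are in the set. On each array the lowest of the 10 was tbb-4, and the highest was tba-4 on prep 1, tba-6 on preps 2 and 3, and tba-1 on prep 4. Among the 45 pairs of isotypes, 30 kept the same order on all 4 arrays. No such count was made for pairs of other genes, so it does not set the tubulins apart.

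**Figure D1:**
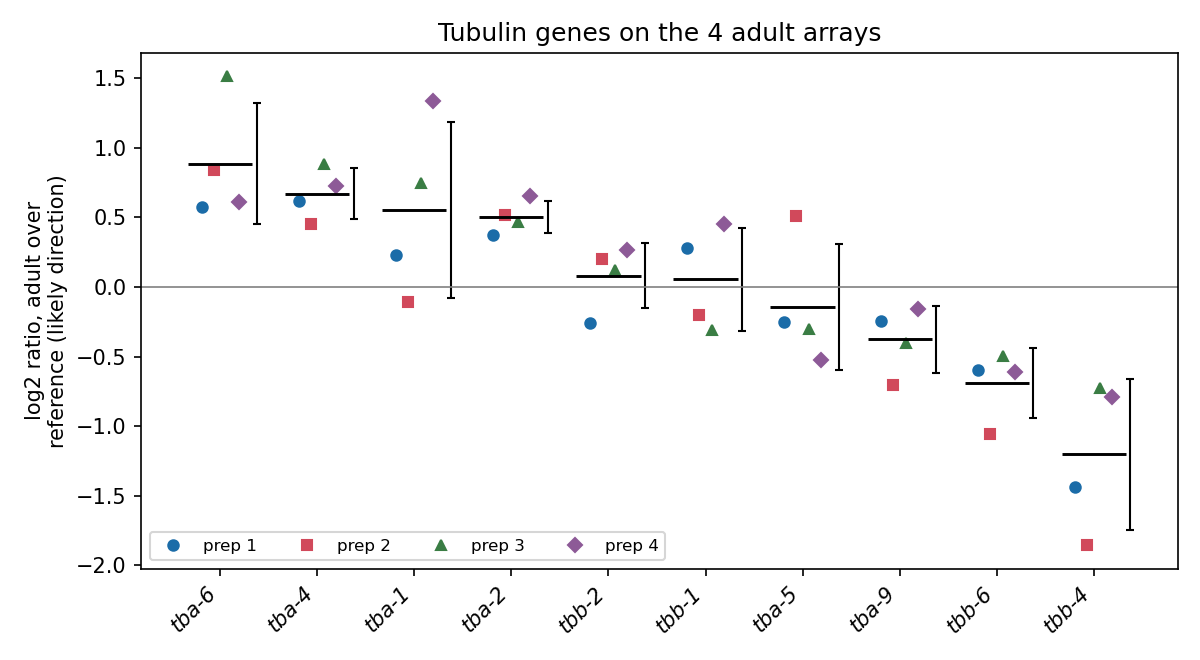
Log2 ratio of adult over reference RNA (likely direction) for 10 tubulin genes, ordered by mean. Each symbol is 1 prep, horizontal lines are means and the bars beside them are ± 1 SD over n = 4 preps; tba-6, tba-4 and tba-2 lie above 0 on every array, and tba-9, tbb-6 and tbb-4 lie below 0 on every array.

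The broadly used isotypes are described first. In the worm, tba-1 and tba-2 encode the main alpha tubulins and tbb-1 and tbb-2 the main beta tubulins of the spindles of the germline and the early embryo. The log2 ratios of tba-2 were 0.37, 0.52, 0.47 and 0.66 on preps 1 to 4, with a mean of 0.50 ± 0.12 (SD, n = 4), or 1.42-fold. All 4 arrays lay above 0 and close together, and 6.27% of the genes had a smaller SD. limma called it (adjusted p = 0.017, 95% interval of the mean from 0.19 to 0.81), but an adjusted p of 0.062 without prep 2 and of 0.061 without prep 4 ended the call.

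For tba-1 the values were 0.23, -0.11, 0.75 and 1.34, with a mean of 0.55 ± 0.63. Its mean was like that of tba-2, but its arrays were spread from below 0 on prep 2 to above every other isotype on prep 4. The SD was larger than that of 91.4% of the genes, and tba-1 was not called (limma adjusted p = 0.084, interval 0.02 to 1.08). Without prep 2, where it was lowest, the mean was 0.77 and tba-1 was called (adjusted p = 0.035). With the 2 arrays of the shared title date averaged into 1 value, the mean was 0.39 (adjusted p = 0.24).

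Both main beta genes sat near 0. tbb-2 had -0.26, 0.20, 0.13 and 0.26, a mean of 0.08 ± 0.23 (limma adjusted p = 0.68, interval -0.26 to 0.42). tbb-1 had 0.28, -0.20, -0.31 and 0.46, a mean of 0.06 ± 0.37 (adjusted p = 0.81, interval -0.34 to 0.45). Each therefore had arrays on both sides of 0, and a difference of up to 0.45 in size lies within the intervals. Set against its possible beta partners on the same array, tba-2 was higher by 0.42 ± 0.14 than tbb-2 and by 0.45 ± 0.35 than tbb-1, in both cases on 4 of 4 arrays. These differences between ratios are given as a description and were not tested. The pairs tba-1 and tba-2 (difference 0.05 ± 0.56) and tbb-2 and tbb-1 (0.03 ± 0.48) each changed order between arrays. Since the coding sequences within each of these pairs are known to be very similar, a probe of one gene may bind RNA of the other, and no probe sequence was used here to check this.

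All 4 of these spindle isotypes were highest on prep 4, where 29.9% of the genes with 4 values had their highest ratio. The germline markers had array medians of 0.73, 1.09, 1.06 and 1.54 on preps 1 to 4, and the oocyte markers had 0.55, 0.98, 0.51 and 1.44, so both were also highest on prep 4. The sperm markers had array medians of 1.08, 1.00, 0.96 and 1.13, which lay closer together, and several sperm genes were lowest on prep 4. Below prep 4 the order differed: tba-1 was lowest on prep 2, tbb-1 on prep 3, and tba-2 and tbb-2 on prep 1. What part the germline share of each preparation had in these values was not tested.

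The alpha gene tba-4, which is expressed in many tissues, had the second smallest SD of the 10. It had 0.62, 0.45, 0.89 and 0.73, a mean of 0.67 ± 0.18 (1.59-fold), and was called (limma adjusted p = 0.0061, interval 0.35 to 0.99). It exceeded tbb-2 by 0.59 ± 0.28 and tbb-1 by 0.61 ± 0.42, on all 4 arrays in both cases. Its call held under every alternative run, with adjusted p from 0.0056 to 0.029.

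The isotypes of ciliated neurons went in different directions. tba-5, tba-6, tba-9 and tbb-4 are known from the cilia of sensory neurons, and tba-6, tba-9 and tbb-4 also from the ciliated neurons of males. tbb-4, a beta subunit of the ciliary axoneme, had -1.44, -1.86, -0.73 and -0.79, with a mean of -1.203 ± 0.54 (2.30-fold lower). Every array was below 0, and preps 3 and 4, of the shared title date, were closer to 0 than preps 1 and 2. The gene was called (limma adjusted p = 0.0025, interval -1.68 to -0.72), and with the arrays of the shared date averaged its mean was -1.35 (adjusted p = 0.0076). Only 5.61% of the genes had a lower mean.

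tba-9 also lay below 0 on every array, with -0.24, -0.70, -0.40 and -0.16, but its mean of -0.38 ± 0.24 was not called (limma adjusted p = 0.070, interval -0.72 to -0.04). tba-5 had -0.25, 0.51, -0.30 and -0.53, a mean of -0.14 ± 0.45 (adjusted p = 0.57, interval -0.57 to 0.29). Leaving out 1 prep moved this mean between -0.36 (without prep 2) and -0.014 (without prep 4), never called. It was above 0 on prep 2, the array on which tbb-4 and tba-9 were lowest.

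tba-6 stood apart from the other ciliary isotypes. Its ratios were 0.58, 0.84, 1.51 and 0.61, with a mean of 0.89 ± 0.43 (1.85-fold), a mean higher than that of 91.3% of the genes. All 4 arrays were above 0, prep 3 furthest, and limma called it (adjusted p = 0.0058, interval 0.46 to 1.31). The difference between tba-6 and tbb-4 on the same array was 2.09 ± 0.54, between 1.405 on prep 4 and 2.70 on prep 2. Between tba-6 and tba-9 it was 1.26 ± 0.56 and between tba-6 and tba-5 1.03 ± 0.62, again positive on 4 of 4 arrays. RNA of other alpha genes that binds the tba-6 probe cannot be told apart from its own RNA on such an array.

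Markers of ciliated neurons, mostly genes of intraflagellar transport and of the ciliary gate, numbered 30 with a test. Of these, 12 had a negative call and 18 had no call, against 21.2% of all genes called negative, and none of the 6 whose mean lay above 0 passed the test. The markers had a median of -0.43 against 0.06 for all genes, and without prep 2 the count of calls in either direction was 6. Their array medians were -0.43, -0.45, -0.16 and -0.42, so the mean of tbb-4 was below them, that of tba-9 was near them, and every value of tba-6 was above them. The 2 marker genes with the largest means in size were bbs-8, a subunit of the ciliary cargo complex, at -1.04 ± 0.41 (limma adjusted p = 0.0025), and the transport gene daf-10 at -0.79 ± 1.73 (adjusted p = 0.26), whose mean was set by prep 1 and became 0.055 without it. Of the 10 genes listed for male neurons, 3 were called negative and none positive, with a median of -0.13. Over all genes 21.2% were called negative and 23.2% positive, so the negative count is near its share. The genes called negative were asic-2 at -1.997 ± 0.76, cwp-4 at -0.87 ± 0.52 and cil-7 at -0.50, the last of them named after its value was seen. cil-7 was not called when prep 1, 2 or 4 was left out (limma adjusted p = 0.080, 0.13 and 0.087). The polycystin genes of male neurons, lov-1 and pkd-2, had means of 0.02 and 0.50 and were not called (adjusted p = 0.91 and 0.19), and pkd-2 had 3 values. Its mean was set by prep 3 and was 0.058 without it. The sources used here do not say whether the reference RNA held males.

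**Figure D2:**
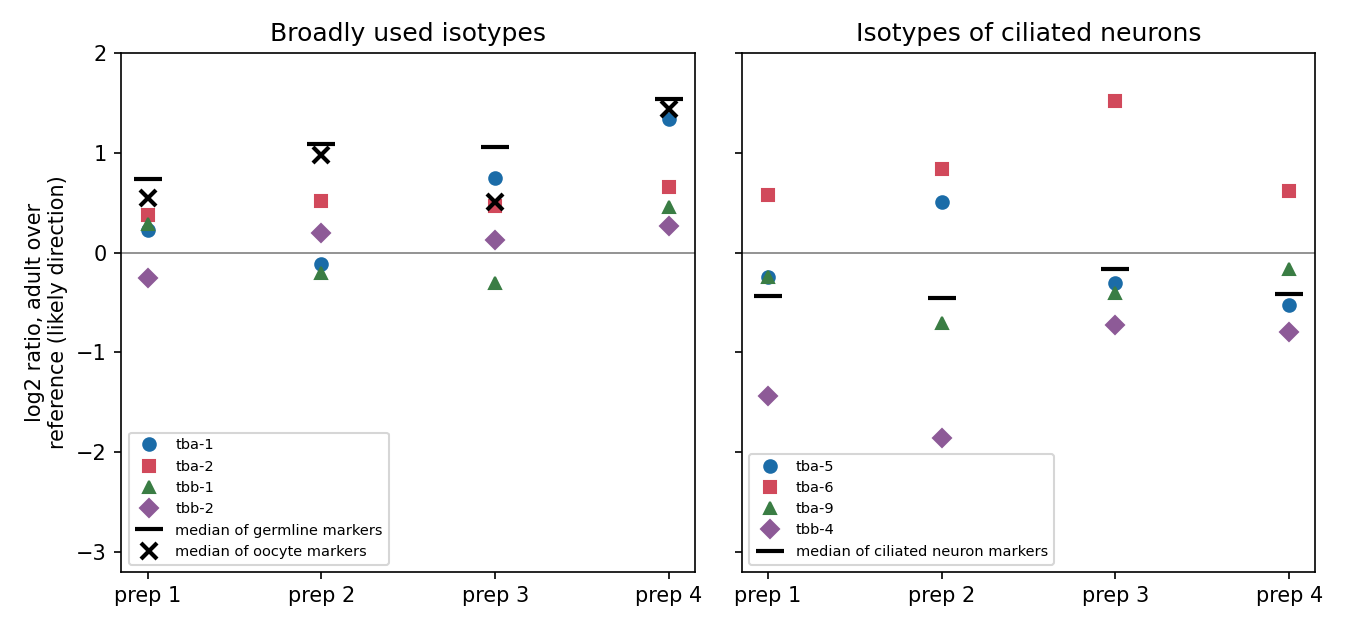
Log2 ratios by prep for the broadly used isotypes (left, with the array medians of germline and oocyte markers) and for the isotypes of ciliated neurons (right, with the array median of ciliated neuron markers). Each coloured symbol is 1 gene on 1 array; the left genes are all highest on prep 4, and on the right tba-6 lies above 0 and tbb-4 below 0 on every array.

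The last member, tbb-6, is a divergent beta tubulin gene known to be induced by mitochondrial stress. It had -0.60, -1.06, -0.50 and -0.61, a mean of -0.69 ± 0.25 (1.61-fold lower). All arrays were below 0, with prep 2 lowest, and the gene was called (limma adjusted p = 0.0070, interval -1.04 to -0.35). It was lower than tba-9 by 0.31 ± 0.15 and higher than tbb-4 by 0.51 ± 0.36, on 4 of 4 arrays in both cases.

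Ordered by mean, the isotypes ran tba-6, tba-4, tba-1, tba-2, tbb-2, tbb-1, tba-5, tba-9, tbb-6 and tbb-4. In 6 of the 9 neighbouring pairs the mean difference was smaller than its SD over the arrays, so their order is not settled. The other 3 kept their order on all 4 arrays: tba-2 above tbb-2, tba-9 above tbb-6, and tbb-6 above tbb-4. Prep 2 held the lowest value of 5 of the 10 genes (tba-1, tba-4, tba-9, tbb-4 and tbb-6), where 21.3% of all genes with 4 values were lowest. Prep 4 held the highest value of 5 (tba-1, tba-2, tba-9, tbb-1 and tbb-2).

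The 2 X-linked members, tba-9 and tbb-4, both lay below 0 on every array. Of 2223 X-linked genes 695 were called negative, 210 positive and 1318 not called, and their median was -0.17. Over all genes 21.2% were called negative and 23.2% positive, with a median of 0.06. Whether the chromosome bears on the ratios of these 2 members was not tested. The 4 members on chromosome I, tba-1, tba-2, tba-5 and tba-6, had means from -0.14 to 0.89.

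The genes with the array pattern closest to tba-6, by the root mean square (RMS) difference of log2 ratios over the 4 arrays among 14629 genes, were fbxa-51 (0.104), acr-21 (0.115) and ZC434.9 (0.14). All 3 shared the high value on prep 3, at 1.41, 1.44 and 1.59. Closest to tbb-4 were F35F10.1 (0.096), T10B10.4 (0.104) and clec-5 (0.128), which like tbb-4 were lowest on prep 2, at -2.01, -1.74 and -1.685. Because the genes were picked for closeness on these same arrays, the shared high and low values follow from the choice. Over 4 arrays this likeness is a description only.

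Of 5 further tubulin genes listed for comparison, 2 were called negative and 1 positive. Over all genes the shares were 21.2% negative and 23.2% positive. The touch receptor neurons of the worm build unusual microtubules from mec-12, an alpha tubulin, and mec-7, a beta tubulin. mec-12 had -1.37, -1.52, -0.87 and -0.92, a mean of -1.17 ± 0.32, and was called (limma adjusted p = 0.00090). mec-7 had -1.05, -0.82, -0.23 and 0.28, a mean of -0.46 ± 0.60, and was not called (adjusted p = 0.13). Without prep 4, its highest array, mec-7 had a mean of -0.70 and was called (adjusted p = 0.036). In both genes preps 3 and 4 were the highest arrays, as in tbb-4. Other touch receptor markers were called negative in 7 of 8 cases, against 21.2% of all genes. Their median was -0.77, against 0.06 for all genes. They were led by mec-9 at -1.49 ± 0.37 and mec-2 at -1.46 ± 0.41, and 4 of them were called without prep 2.

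The alpha gene tba-8 had the lowest mean of the tubulins named here. Its ratios were -1.60, -2.69, -1.42 and -1.44, a mean of -1.79 ± 0.61 (3.45-fold lower, limma adjusted p = 0.00056), and without prep 2 the mean was -1.49. tba-7, another alpha gene, lay below 0 on every array, from -0.78 to -0.14, but its mean of -0.37 ± 0.30 was not called (adjusted p = 0.088). The gamma tubulin gene tbg-1, whose protein starts new microtubules at the centrosome, was the only one of these 5 called positive. It had 0.45, 0.53, 0.28 and 0.82, a mean of 0.52 ± 0.23 (adjusted p = 0.021), and was not called when prep 2 (adjusted p = 0.068) or prep 4 was left out (adjusted p = 0.080).

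The genes that make, modify and organise microtubules were read from 4 further lists. These lists were chosen with earlier results of these data known, so their counts are a description only. Of 11 measured genes for nucleation and the centrosome, tbg-1 among them, 11 were called positive, against 23.2% of all genes. The median was 0.74. The list included spd-5, a scaffold of the centrosome, at 0.92 ± 0.19 (limma adjusted p = 0.0015) and the centriole gene sas-5 at 0.91 ± 0.21 (adjusted p = 0.0016). Without prep 2 or without prep 4 the count was 6. The array medians of this list were 0.45, 0.72, 0.58 and 1.03, with prep 4 highest as in the spindle isotypes. Prep 4 also had the highest median of the further tubulins and of each other microtubule list, so this is not particular to the centrosome genes.

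New tubulin is folded by the chaperonin CCT with its helper prefoldin and then by tubulin cofactors. Of 15 measured genes for folding, 9 were called positive and none negative, against 23.2% and 21.2% of all genes. The median was 0.49 and all 15 means lay above 0, from 0.19 to 0.99. The prefoldin gene pfd-3 had 0.99 ± 0.33 (limma adjusted p = 0.0020) and the chaperonin gene cct-6 had 0.66 ± 0.11 (adjusted p = 0.0050). Without prep 4, 5 genes of the list were called.

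Of 8 measured enzymes that modify tubulin, 1 was called positive and 2 negative, shares near or below those of all genes (23.2% and 21.2%), and the median was 0.07. The negative genes were both alpha tubulin acetyltransferases: mec-17, which acts in touch receptor neurons, at -1.04 ± 0.27 (limma adjusted p = 0.0012) and atat-2 at -0.84 ± 0.56 (adjusted p = 0.013).

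Of the genes for severing and dynamics of microtubules, 6 of 15 were called positive and 3 negative, with a median of 0.57. Over all genes 23.2% were called positive and 21.2% negative, so the negative count is near its share. The most positive was mei-1, the katanin subunit that trims the meiotic spindle, at 1.33 ± 0.48 (limma adjusted p = 0.0012). The most negative was ptl-1, the tau-like protein gene of neurons, at -1.76 ± 0.43 (adjusted p = 0.00024). Over the 4 lists and the 5 further tubulins together, 27 of 53 genes were called positive and 7 negative, against 23.2% and 21.2% of all genes.

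**Figure D3:**
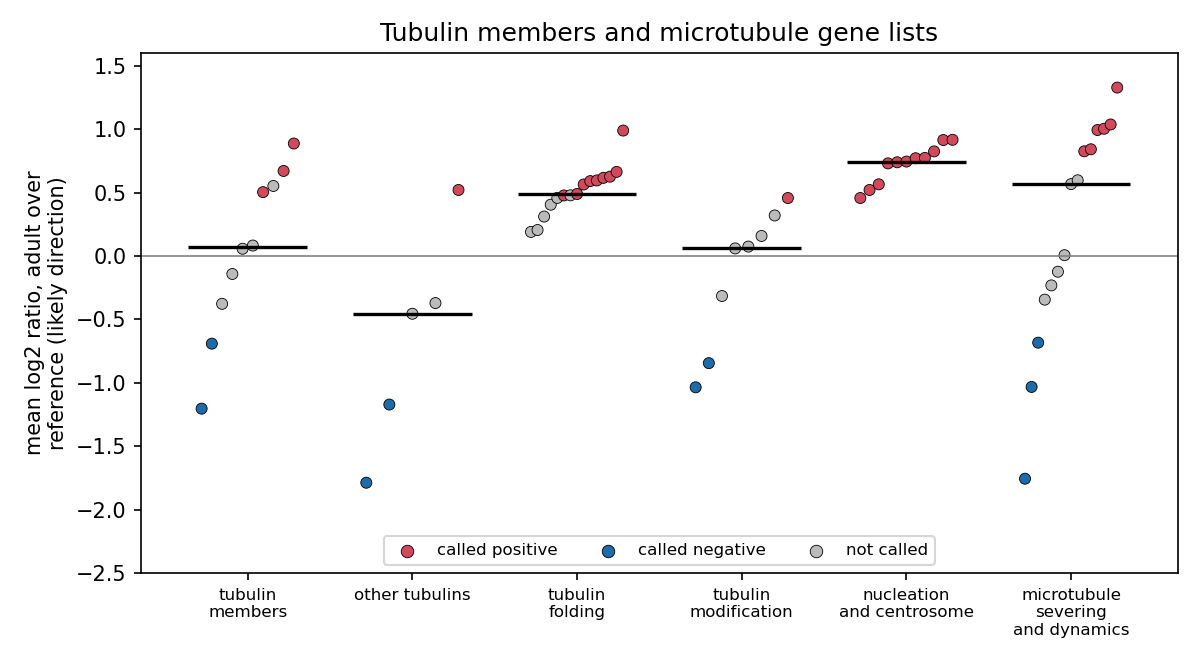
Mean log2 ratio over 4 preps of each tubulin member and of each measured gene in 5 microtubule lists (tbg-1 is in 2 of them). Points are genes, coloured by their limma call, and horizontal lines are list medians; all 11 nucleation and centrosome genes are called positive, while the tubulin members lie on both sides of 0.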

How the data were processed

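Each of the 4 arrays compared adult RNA with a mixed reference. Per probe and array there is 1 deposited log2 ratio, with the channels taken per the labels. That the deposited values are log2 was read from the values, since between 99.934% and 99.995% of spots on an array, raised as powers of 2, fell within 0.00001 of a number with 3 decimals. The sources used here do not give scanner, dyes, background correction or normalization, and without intensities it is unknown which spots were dim. Of 21632 probes, 16450 had 1 gene symbol, 247 several and 4935 none in GEO's platform annotation. Symbols were updated by gene ID (16360 probes) or accession (5) to RefSeq, WBcel235, and 85 kept theirs. Probes were averaged per gene and array.

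limma 3.58.1 in R 4.3.3 (intercept, lmFit, eBayes) was fitted to 14935 genes with at least 3 values, and Benjamini-Hochberg adjusted over all of them at 0.05. The spread of the reference itself does not enter this test, and p-values measure the spread between preps, which the labels do not tie to separate cultures. Intervals (95%) are not adjusted for the number of genes. SDs are over arrays, whose number limits precision. The members and gene lists were chosen with earlier results of these data known. Named were the tubulins of the set and those listed for comparison, which may not be every tubulin gene on the array. The 2 genes furthest from 0 in each list were also named (no gene of the germline, sperm and oocyte lists is named). So were the 3 nearest genes to the highest and lowest member. Genes named beyond this rule are cil-7, lov-1 and pkd-2. Alternatives were centring, scaling, other minimum numbers of values, a robust prior, array weights, probe medians and leaving out each prep. Averaging the arrays of 1 title date was chosen after seeing the data.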

Additional observations from a re-analysis of the deposited data

Results flagged for a closer look

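Of 52 sets of 4 values tested for 1 array far from the other 3, 3 were picked out, where chance gives about 1 in 20. None of the 10 tubulin members was among them. The alpha tubulin gene tba-8 had -2.69 on prep 2, while its other values ran from -1.60 to -1.42. The median of the ciliated neuron markers was -0.164 on prep 3, against -0.45 to -0.42 elsewhere. The male neuron gene cwp-4 had -0.092 on prep 3, against -1.19 to -1.03 elsewhere.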

How the results depend on the processing

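The count of tubulin genes called was 5 under every alternative except without prep 4, where it was 4. The calls and signs of tba-4, tba-6, tbb-4 and tbb-6 held under all alternatives run. When 1 prep was left out, the mean of tba-1 ranged from 0.29 to 0.77 (called without prep 2), that of tba-2 from 0.45 to 0.55 (not called without prep 2 or 4), and that of tbb-1 from -0.076 to 0.178 (below 0 without prep 1 or 4, never called). That of tba-5, never called, ranged from -0.36 to -0.014. The uncalled ciliary marker daf-10 ranged from -1.245 to 0.055, and the uncalled male neuron gene lov-1 from -0.008 to 0.047, or -0.001 with the arrays centred. The cause of these shifts was not tested; each fit without a prep also has fewer arrays. All genes called ranged from 4952 to 6811, against 6639. The random block on the title date could not be estimated with 3 dates for 4 arrays, and splitting genes by probe was not run, as each tubulin had 1. No paired analysis was possible because the arrays form 1 group. Ratios of probes near background may lie nearer to 0, and depth in that sense is unknown here.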
